A study of Drosophila melanogaster with 2 samples.

Results

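The strong gem-GFP binding peaks described here were among the strongest peaks of only 1 of the study's 2 biological replicates. Most of them also had a weaker summit in the list of the other replicate. The 11045 peaks of highest signal were taken from the list of each replicate, and a peak was kept when no summit among the 11045 strongest peaks of the other replicate lay within 250 bp of its own summit. The rule left 1926 replicate 1-only peaks (17.4% of 11045) and 1695 replicate 4-only peaks (15.3% of 11045), together 3621 of the 22090 strongest peaks of both replicates. The remaining peaks, 9119 of replicate 1 and 9350 of replicate 4, are called shared. The replicate 1-only peaks lay at gene promoters in 340 of 1926 cases (17.7%), the replicate 4-only peaks in 760 of 1695 cases (44.8%). The median GC content at their summits was 28.7% in the replicate 1-only set and 35.6% in the replicate 4-only set, against 28.7% at the shared peaks. Of all protein-coding genes, 2.75% had a replicate 1-only and 6.16% a replicate 4-only promoter peak. Of 93 cytosolic ribosomal protein genes, 2 (2.15%) had a replicate 1-only and 19 (20.4%) a replicate 4-only one. That was the highest replicate 4-only share of the 21 gene lists examined. Of the 402 other housekeeping genes examined, 17 (4.23%) had a replicate 1-only and 30 (7.46%) a replicate 4-only promoter peak.

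The data come from chromatin immunoprecipitation followed by sequencing (ChIP-seq) on whole embryos of Drosophila melanogaster, males and females together, aged 0 to 24 h. Both replicates carried the same transgene, a gem gene tagged at its C-terminus with GFP, and the precipitation used an antibody to GFP. The replicates were separate biosamples of 1 group with no second genotype, treatment or untagged embryos analysed here. Whole embryos of this age span mix many stages and cell types, so a peak may come from any of them.

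Gem (gemini) belongs to the CP2 branch of the family of DNA-binding proteins that also holds Grainyhead, a regulator of epidermal barrier genes in flies. Proteins of this family bind as dimers to sites made of paired copies of a short sequence, for which Grainyhead's palindrome is the textbook example in flies. Housekeeping genes, such as those for ribosomal proteins, are used in nearly all cells, and in flies many of their promoters hold the DNA replication-related element (DRE), bound by the protein DREF, or the site known as Ohler motif 1, bound by M1BP.

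The letters at the summits show the range that the shares below summarise. Each line gives the gene with the nearest transcription start site (TSS), the position on assembly dm6 and the plus-strand sequence from RefSeq, in the window of 50 bases on either side of the summit, trimmed to bases outside annotated untranslated regions. Capitals mark a match to the DRE, TATCGATA, or to a single Grainyhead-type core, AACCNG, on either strand, and a line without capitals holds neither. The 3 strongest replicate 1-only peaks and then the 3 strongest replicate 4-only peaks for which a sequence is printed come first.
wfs1, chr3R:22690427-22690527: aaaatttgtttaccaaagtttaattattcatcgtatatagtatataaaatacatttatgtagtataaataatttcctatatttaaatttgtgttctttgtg
CG12299, chr2L:10737270-10737344: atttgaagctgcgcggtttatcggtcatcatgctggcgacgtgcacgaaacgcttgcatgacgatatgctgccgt
CG5001, chr2L:1185699-1185756: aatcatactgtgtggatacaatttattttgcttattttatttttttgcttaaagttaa
RpL14, chr3L:8600915-8601005: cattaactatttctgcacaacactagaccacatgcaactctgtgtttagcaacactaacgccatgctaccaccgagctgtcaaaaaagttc
CG3301, chr3R:21276335-21276435: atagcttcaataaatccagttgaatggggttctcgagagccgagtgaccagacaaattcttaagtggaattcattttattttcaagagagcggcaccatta
Rim2, chr2L:1720104-1720204: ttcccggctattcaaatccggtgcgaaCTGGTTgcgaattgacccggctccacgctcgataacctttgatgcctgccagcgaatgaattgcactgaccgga
The next lines are the strongest peaks of each set at promoters of the housekeeping gene lists among those not already shown and for which a sequence is printed, with the replicate 1-only peaks before the replicate 4-only peaks.
Vha68-1, chr2L:13004211-13004311: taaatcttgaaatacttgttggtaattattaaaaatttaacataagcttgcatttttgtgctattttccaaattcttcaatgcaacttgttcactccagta
ProRS-m, chr3L:2651940-2652040: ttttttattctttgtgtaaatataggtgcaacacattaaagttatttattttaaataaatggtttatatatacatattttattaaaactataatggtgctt
COX8, chr3L:21539523-21539623: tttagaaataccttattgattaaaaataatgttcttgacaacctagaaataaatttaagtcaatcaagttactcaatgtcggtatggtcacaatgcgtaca
RpL28, chr3L:3223039-3223139: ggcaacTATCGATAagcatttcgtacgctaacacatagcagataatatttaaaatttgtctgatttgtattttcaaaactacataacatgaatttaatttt
RpL13A, chr3R:5624371-5624471: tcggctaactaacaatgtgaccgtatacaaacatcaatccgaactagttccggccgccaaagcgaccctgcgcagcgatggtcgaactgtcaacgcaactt
RpS27A, chr2L:10408215-10408315: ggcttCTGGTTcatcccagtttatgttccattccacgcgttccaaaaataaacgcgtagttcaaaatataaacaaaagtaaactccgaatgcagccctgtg
The strongest shared peak of replicate 1 for which a sequence is printed closes the set.
CG14100, chr3L:19590564-19590664: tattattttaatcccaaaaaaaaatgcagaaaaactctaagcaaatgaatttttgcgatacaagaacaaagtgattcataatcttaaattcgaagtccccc
The windows at wfs1, at ProRS-m and at Vha68-1, all replicate 1-only, are mostly A and T, with GC contents of 17.8%, 17.8% and 26.7%. CG12299, at 55.4% over its whole window, shows that the replicate 1-only set also holds GC-rich summits. In the replicate 4-only set Rim2 (54.5%) and RpL13A (51.5%) are GC-rich, while RpL28 (26.7%) is not.

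The members were chosen by their signal and summit positions, so those values describe the choice and support nothing further. Signal in replicate 1-only peaks ran from 130 to 2996 with a median of 167, and their rank in replicate 1 had a best value of 210 and a median of 9246.5. Signal in replicate 4-only peaks ran from 64.6 to 763 with a median of 83.6, and their rank in replicate 4 had a best value of 482 and a median of 8858. Signal is the caller's own value per peak with no stated scale, so it ranks peaks within a replicate and does not compare the replicates, and the read depth behind it is unknown. At the cut the last peak taken and the first left out had signals of 130.0847 and 130.0775 in replicate 1, and of 64.5823 and 64.5510 in replicate 4. The member nearest to the distance limit lay 261 bp from a strong summit of the other replicate in the replicate 1-only set and 252 bp in the replicate 4-only set, while the farthest shared peak lay 249 bp away in replicate 1 and 250 bp in replicate 4. Shared summits were typically much closer, with medians of 15 bp for replicate 1 peaks and 16 bp for replicate 4 peaks.

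Whether a member also had a weaker summit in the other replicate follows in part from the choice and is given as a description. A weaker summit within 250 bp, beyond the strongest 11045 of the other list, was present for 1441 replicate 1-only peaks (74.8%, exact 95% interval 72.8 to 76.7) and for 1065 replicate 4-only peaks (62.8%, 60.5 to 65.1). No summit at all among the 30000 listed was present for 485 replicate 1-only peaks (25.2%) and 630 replicate 4-only peaks (37.2%). These shares depend on the cut: with the 22090 strongest peaks of each list, a weaker summit was present for 33.9% of replicate 1-only and 28.0% of replicate 4-only peaks, and with a matching distance of 100 bp for 63.8% and 50.4% in that order. Intervals here and below are exact binomial (Clopper-Pearson) ones at the 95% level and take in no error but that of counting. Each set comes from 1 sample, so there is no replicate behind a difference between the sets and no p-value was computed.

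By rank in the own replicate, which the choice also used, the split was as follows. Of the replicate 1-only peaks ranked 1 to 5000, 9 of 10, 44 of 44 and 99 of 103 in successive rank ranges had no summit in replicate 4. Among those ranked 7501 to 11045 the number was 208 of 1502 (13.8%). Of the replicate 4-only peaks ranked 1 to 5000, 4 of 4, 27 of 36 and 115 of 155 had no summit in replicate 1, and among those ranked 7501 to 11045 the number was 329 of 1193 (27.6%).

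**Figure D1:**
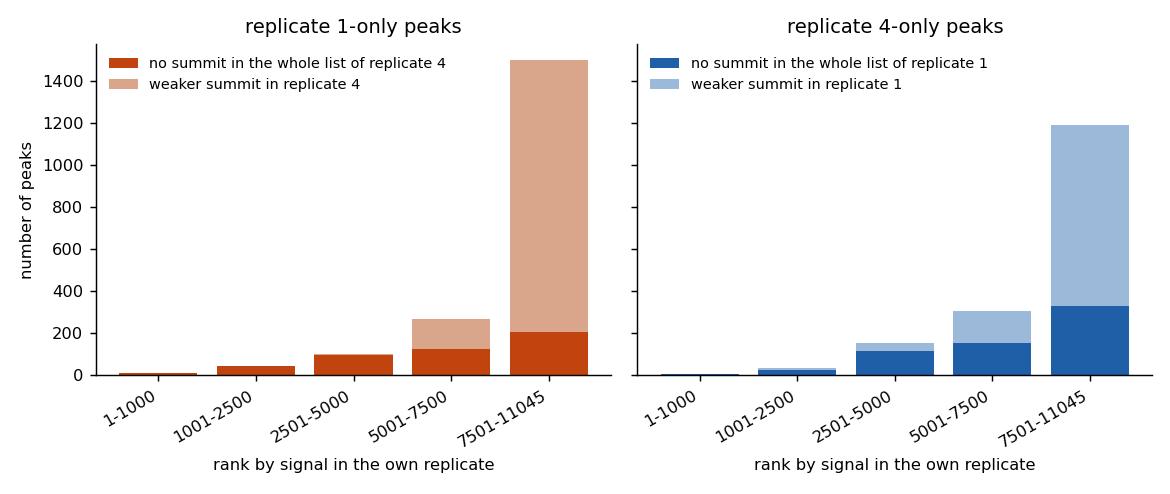
Number of replicate 1-only peaks (left) and replicate 4-only peaks (right) by rank in their own replicate, split into peaks with no summit within 250 bp in the whole list of the other replicate (dark, bottom) and peaks with a weaker summit there (light, top). Ranks 7501 to 11045 hold 1502 replicate 1-only and 1193 replicate 4-only peaks, of which 208 and 329 in that order had no summit in the other list.

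The pooled list and the list thresholded by irreproducible discovery rate (IDR), which scores whether peaks keep their rank between lists, kept the sets unequally. The pooled list was made from both replicates, and the IDR list from both replicates and the pooled list. A summit of the pooled list lay within 250 bp of 1735 replicate 1-only peaks (90.1%) and 1273 replicate 4-only peaks (75.1%). The IDR list held one at 1394 replicate 1-only peaks (72.4%, 70.3 to 74.4) and 517 replicate 4-only peaks (30.5%, 28.3 to 32.8), against 9063 of 9119 (99.4%) shared peaks of replicate 1. Among members with no summit in the other replicate, the IDR list still held 51.5% of the replicate 1-only and 16.8% of the replicate 4-only peaks. A place in the IDR list thus did not require a summit in the list of each replicate.

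Promoter peaks were defined by a summit within 500 bp of a TSS. They made up 17.7% of the replicate 1-only set (16.0 to 19.4), 44.8% of the replicate 4-only set (42.5 to 47.2) and 32.3% of the shared peaks of replicate 1, where 13.6% of all genome positions lie that close to a TSS. The replicate 1-only set was thus below the shared peaks and the replicate 4-only set above them, with intervals that do not meet. The median distance to the nearest TSS was 2864.5 bp for replicate 1-only peaks and 689 bp for replicate 4-only peaks, against 1420 bp for shared peaks of replicate 1. Distal replicate 1-only peaks lay between genes in 641 cases (33.3% of the set) and in introns in 887 (46.1%). Distal replicate 4-only peaks lay between genes in 207 cases (12.2%) and in introns in 661 (39.0%). Distal coding exon peaks numbered 4 in the replicate 1-only set and 4 in the replicate 4-only set.

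The promoter share of the replicate 1-only set depended strongly on rank. All 10 members ranked in the first 1000 of replicate 1 were promoter peaks, and so were 33 of 44 ranked 1001 to 2500. The share was 40.8% at ranks 2501 to 5000, 18.4% at ranks 5001 to 7500 and 13.7% (12.0 to 15.6) at ranks 7501 to 11045, the last close to the 13.6% of genome positions. In the replicate 4-only set the share was 3 of 4 in the first 1000, 41.7% at ranks 1001 to 2500, 58.1% at ranks 2501 to 5000, 52.8% at ranks 5001 to 7500 and 41.1% (38.3 to 43.9) at ranks 7501 to 11045. Shared peaks of ranks 7501 to 11045 had shares of 27.2% in replicate 1 and 22.3% in replicate 4. The overall low promoter share of the replicate 1-only set thus came from its weaker members, which are most of the set, whereas the strongest of them lay at promoters more often than shared peaks of like rank (38.7% at ranks 1001 to 2500 of replicate 1).

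**Figure D2:**
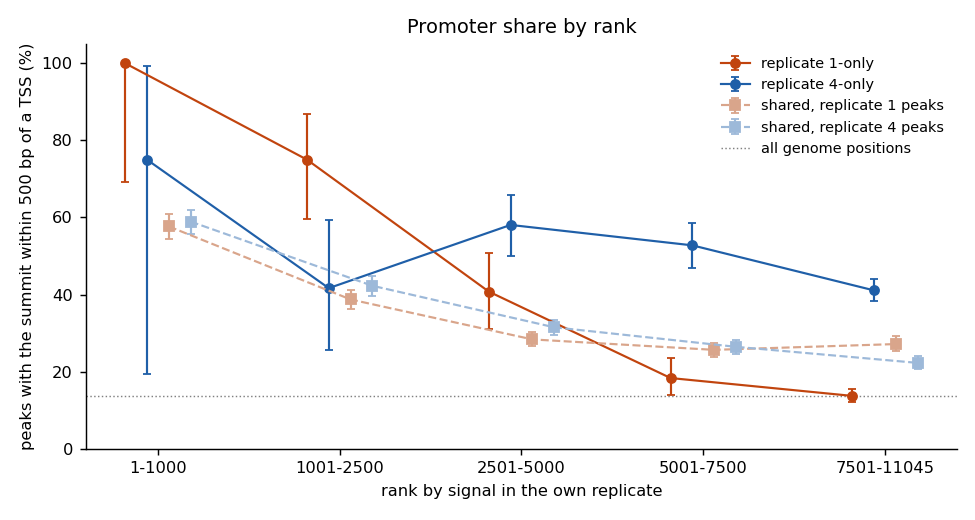
Share of peaks with the summit within 500 bp of a TSS (%) by rank in the own replicate, for replicate 1-only, replicate 4-only and shared peaks, with exact 95% intervals and the share of all genome positions as a dotted line. The replicate 1-only share is 100% in the first range and 13.7% in the last, while the replicate 4-only share is 41.1% in the last.

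Presence in the other list gave the same order. Members with no summit in the other replicate were promoter peaks in 29.9% of replicate 1-only (25.9 to 34.2) and 55.9% of replicate 4-only cases (51.9 to 59.8). Members whose summit in the other list ranked up to 15000 were promoter peaks in 13.9% of replicate 1-only and 34.8% of replicate 4-only cases. Promoter members of both sets lay mostly upstream of the TSS, in 74.7% of replicate 1-only and 72.4% of replicate 4-only cases, against 82.4% for shared peaks of replicate 1. They differed in how near the TSS they lay. Summits within 100 bp of the TSS made up 25.9% of the replicate 1-only promoter peaks (21.3 to 30.9) and 46.4% of the replicate 4-only ones (42.9 to 50.1), against 21.3% of the shared ones of replicate 1. The range from 100 to 200 bp upstream held 27.6% of replicate 1-only promoter peaks, 23.8% of replicate 4-only ones and 32.3% of shared ones of replicate 1.

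The strongest replicate 1-only peak, on arm 2R, lay 34 bp upstream of CG3253 with a signal of 2996 (rank 210) in replicate 1, and the nearest summit listed in replicate 4 lay 19347 bp away. The second, 53 bp upstream of Mic26-27, a component of the mitochondrial cristae organising complex, had a signal of 2104 (rank 424) in replicate 1 and of 18.5 (rank 29628) in replicate 4. Peaks near gus, CG12299, wfs1, CG5001, CG14352 and CG4707 followed, between 14 and 104 bp upstream of their TSS and with no summit in replicate 4. The peak 154 bp upstream of Vha68-1, a catalytic subunit of the vacuolar proton pump, had a signal of 1334 (rank 929). The tenth lay 30 bp downstream of the TSS of Mkp, a MAP kinase phosphatase. Of these 10 peaks, 9 had no summit in replicate 4, and all but the one at CG4707 had a summit in the IDR list.

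The strongest replicate 4-only peak lay 92 bp upstream of Alg3, a mannosyltransferase of protein glycosylation, with a signal of 763 (rank 482) in replicate 4, and the nearest summit listed in replicate 1 lay 1863 bp away. The second lay 41 bp upstream of RpL14, a protein of the large ribosomal subunit, with a signal of 547 (rank 883), with the nearest replicate 1 summit 3503 bp away. The peak nearest PIG-O, an enzyme of GPI anchor synthesis, lay in an intron 6827 bp from that TSS, and the one nearest Rim2, a mitochondrial nucleotide carrier, in an intron 4234 bp from it. The others of the 10 were nearest CG3301, CG12746, asRNA:CR44981, CG1271, Tps1, which makes trehalose phosphate, and Desat1, a fatty acid desaturase. None of these 10 had a summit within 250 bp in replicate 1. A replicate 1 summit lay 266 bp from the Desat1 peak, just beyond that limit. Of the 10, 4 had a summit in the IDR list.

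GC content was measured over 50 bp on either side of the summit. It had a median of 28.7% in replicate 1-only peaks (quartiles 24.8 and 34.7%) and of 35.6% in replicate 4-only peaks (quartiles 29.7 and 42.6%), against 28.7% in shared peaks of replicate 1 and 42.6% in all windows of the genome of that length. Summits under 30% GC made up 1074 replicate 1-only peaks (55.8%) and 474 replicate 4-only peaks (28.0%). Summits of 40% or more made up 194 replicate 1-only peaks (10.1%) and 556 replicate 4-only peaks (32.8%). The AT-rich summit was also local: against the flanks 300 bp away, the median difference was −16.3 percentage points for replicate 1-only peaks and −4.46 for replicate 4-only peaks, with −16.3 for shared peaks of replicate 1. Over 250 bp on either side the medians were close, 38.9% for replicate 1-only and 38.1% for replicate 4-only peaks, so the difference between the sets lay in the shape of the profile around the summit.

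**Figure D3:**
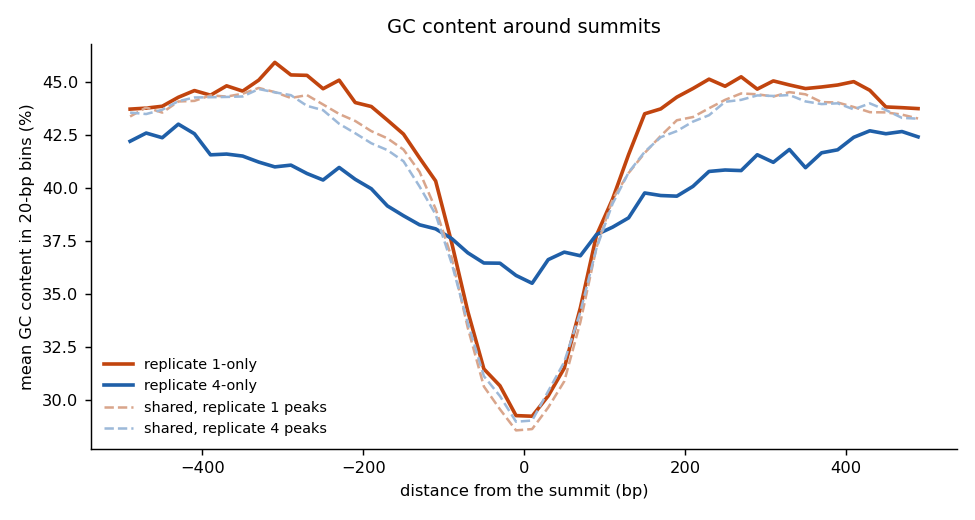
Mean GC content (%) in 20-bp bins by distance from the summit (bp) for replicate 1-only and replicate 4-only peaks (solid) and shared peaks (dashed). The replicate 1-only curve follows the narrow dip of the shared peaks, and the replicate 4-only curve is shallow, with median summit-to-flank differences of −16.3 percentage points for replicate 1-only and −4.46 for replicate 4-only peaks.

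The GC difference was present at promoter and distal members alike, and the promoter difference in each GC range. Among promoter members the median GC content was 29.7% in the replicate 1-only set and 37.6% in the replicate 4-only set, and among distal members 28.7% and 34.7% in the same order. In each of the 6 GC ranges examined the promoter share was lower in replicate 1-only than in replicate 4-only peaks. Under 25% GC it was 18.1% of replicate 1-only and 42.4% of replicate 4-only peaks, and at 45% or more it was 29.0% and 56.3% in that order. Members with no summit in the other list had median GC contents of 28.7% in the replicate 1-only and 34.7% in the replicate 4-only set.

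A gene was counted when a promoter peak of the set lay within 500 bp of one of its TSSs. Of 13945 protein-coding genes, 384 (2.75%) had a replicate 1-only promoter peak, 859 (6.16%) a replicate 4-only one, 3088 (22.1%) a shared one of replicate 1 and 3093 (22.2%) a shared one of replicate 4. These shares are the background for the lists. Both replicate-only sets held 24 genes, which are 6.25% of the replicate 1-only genes, near the 6.16% of all genes with a replicate 4-only peak, and 2.79% of the replicate 4-only genes, near the 2.75% of all genes with a replicate 1-only peak. A shared peak also lay at the promoter of 59 of the 384 replicate 1-only and 138 of the 859 replicate 4-only genes. Over 11 lists of housekeeping genes with 495 genes in all, 19 (3.84%, 2.33 to 5.93) had a replicate 1-only peak and 49 (9.90%, 7.41 to 12.9) a replicate 4-only one. The background of 2.75% lies inside the first interval and that of 6.16% below the second. The latter depended on 1 list, the cytosolic ribosomal proteins, a split made after the values were seen. Without them, 17 of 402 genes (4.23%, 2.48 to 6.68) had a replicate 1-only and 30 (7.46%, 5.09 to 10.5) a replicate 4-only peak. Both backgrounds lie inside these intervals. Translation factors taken alone also had a replicate 4-only interval above 6.16% (15.1%, 6.75 to 27.6). Shared peaks of replicate 1 lay at 170 of the 495 housekeeping genes (34.3%). Housekeeping genes made up 4.95% of the protein-coding genes with a replicate 1-only peak, 5.70% of those with a replicate 4-only peak and 5.51% of those with a shared one of replicate 1, so that by this measure the sets were near each other, while they are 3.55% of all protein-coding genes. Over 10 other lists of developmental and tissue genes with 492 genes, 5 (1.02%) had a replicate 1-only and 12 (2.44%) a replicate 4-only peak, both under the background. That came from the cuticle protein and chemoreceptor lists: the 144 genes of the other lists, also split after the values were seen, had 4 (2.78%) with a replicate 1-only and 10 (6.94%) with a replicate 4-only peak, near the backgrounds.

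Of the 21 lists, cytosolic ribosomal protein genes had the highest share with a replicate 4-only peak. Of 93 such genes, 2 (2.15%, 0.262 to 7.55) had a replicate 1-only peak and 19 (20.4%, 12.8 to 30.1) a replicate 4-only peak, while 56 had a shared peak of replicate 1. The replicate 1-only peaks were those of RpL7A (signal 171, rank 9076) and RpL17 (signal 159, rank 9548), both on the X, and at the same summits replicate 4 had weaker peaks, of ranks 12387 and 11649. Replicate 4 also had a strong promoter peak elsewhere at both genes, since RpL7A is itself among the 19 with a replicate 4-only peak (rank 8847) and RpL17 had a shared peak of rank 4984 in replicate 1 and 2021 in replicate 4. The 19 replicate 4-only peaks ranged over ranks 883 to 8847 in replicate 4, and 14 of them had no summit in replicate 1. RpL14 led, followed by RpL11 (signal 395, rank 1483), whose replicate 1 summit ranked 26887, and by RpL28 (signal 377, rank 1576) and RpL13A (signal 353, rank 1744), which had none. Their median summit GC content was 43.6%, and 6 of the 19 windows held the DRE, among them that of RpL28. Over all replicate 4-only promoter peaks the median GC content was 37.6%, and 5.92% of windows held the DRE. Of the 48 replicate 4-only peaks at promoters of all housekeeping lists, these included, 8 held it. At 17 of the 19 ribosomal protein genes no shared peak lay at the promoter. Most genes of the set were like this, since of all 859 protein-coding genes with a replicate 4-only peak 138 had a shared one. Of the 93 genes, 19 had no promoter peak of any set.

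Translation factors had 0 of 53 genes with a replicate 1-only peak, with an interval up to 6.72%, and 8 (15.1%, 6.75 to 27.6) with a replicate 4-only peak. The background of 2.75% lies inside the first interval and that of 6.16% below the second. The replicate 4-only genes named are eIF1, which acts in start codon choice, eIF5, its partner in that step, eEF1beta, an exchange factor of elongation, and eIF4A, an RNA helicase. The eIF1 peak is the RpL28 peak, since both TSSs lie within 500 bp of that summit. Proteasome genes had 1 of 32 with a replicate 1-only peak, Rpn8 (signal 554, rank 3121), and 3 with a replicate 4-only peak, Rpn7, Prosbeta1 and Rpn10, with ranks of 4677, 5463 and 6171. None of these 4 peaks had a summit in the other replicate. Splicing factor genes had 1 of 28 in the replicate 1-only set, Prp31, and 3 in the replicate 4-only set, SmD1, Prp19 and Sf3a1. RNA polymerase subunits had 0 of 30 in the replicate 1-only set and 2 in the replicate 4-only set, Polr3B and Polr2K. Of the 8 chaperonin genes, CCT7 alone had a replicate 4-only peak and none a replicate 1-only one.

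Genes of the vacuolar proton ATPase and of the nuclear pore were counted more often in the replicate 1-only set. Of 33 vacuolar ATPase genes, 6 (18.2%, 6.98 to 35.5) had a replicate 1-only peak and 3 (9.09%, 1.92 to 24.3) a replicate 4-only one, with overlapping intervals. The background of 2.75% lies below the first interval and that of 6.16% inside the second. Shared peaks of replicate 1 lay at 6 of these genes (18.2%). The list is 1 of 21 and was not tested. The strongest replicate 1-only peaks were those of Vha16-5 (signal 1712, rank 632), which is the CG12299 peak, Vha68-1, Vha16-1 (signal 694, rank 2348) and VhaM9.7-b, which is the COX8 peak. Vha16-1 was in both sets through separate peaks, the replicate 4-only one with a signal of 81.4 at rank 9068. Of 26 nuclear pore and transport genes, 3 (11.5%, 2.45 to 30.2) had a replicate 1-only peak and 0 a replicate 4-only one, with an interval up to 13.2% that overlaps the first. They were Nup133, which shares the wfs1 peak, Nup43 (signal 394, rank 4404) and Nup58 (signal 289, rank 5862), and replicate 4 had no summit at any of them. For the nuclear pore list the background of 2.75% lies inside the replicate 1-only interval and that of 6.16% inside the replicate 4-only one.

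The other lists had few genes counted in either set, though not always a small share. Respiratory chain and ATP synthase genes had 4 of 86 in the replicate 1-only set, led by COX8, a cytochrome c oxidase subunit with a signal of 657 (rank 2514), and 6 in the replicate 4-only set, led by ND-MLRQ with a signal of 94.5 (rank 7876). Mitochondrial ribosomal proteins had 1 of 73 in the replicate 1-only set, mRpL27, and 3 in the replicate 4-only set, mRpL2, mRpL53 and mRpS11. Aminoacyl-tRNA synthetases had 1 of 33 in each set, ProRS-m (signal 889, rank 1719) in the replicate 1-only and HisRS (signal 69.9, rank 10352) in the replicate 4-only set. For the respiratory chain, mitochondrial ribosomal protein and aminoacyl-tRNA synthetase lists both backgrounds lie inside the intervals. Septate junction genes, which build the barrier between epithelial cells, had 2 of 24 (8.33%, 1.03 to 27.0) in the replicate 1-only set, cold and Fas3. In the replicate 4-only set they had 4 (16.7%, 4.74 to 37.4), crim, cora, bou and Nrg. That share is above the 15.1% of the translation factors. The backgrounds of 2.75% and 6.16% lie inside these intervals. Signalling genes had 0 of 26 in the replicate 1-only set and 3 (11.5%, 2.45 to 30.2) in the replicate 4-only set, gbb, rho and aop. The Hox gene lab (signal 151, rank 9953) and the barrier list gene pio (signal 172, rank 8999) had replicate 1-only peaks. Chemoreceptor and odorant binding protein genes had 1 of 231 in the replicate 1-only set, Gr77a, and 2 in the replicate 4-only set, Gr97a and Gr39b. The Notch target E(spl)mbeta-HLH, the synaptic gene Syx1A and the muscle gene Tm1 were the only members of their lists counted, each with a replicate 4-only peak. Structural cuticle protein genes had 0 of 117 and segmentation genes 0 of 24 in each set, with intervals up to 3.10% for cuticle protein genes and 14.2% for segmentation genes.

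**Figure D4:**
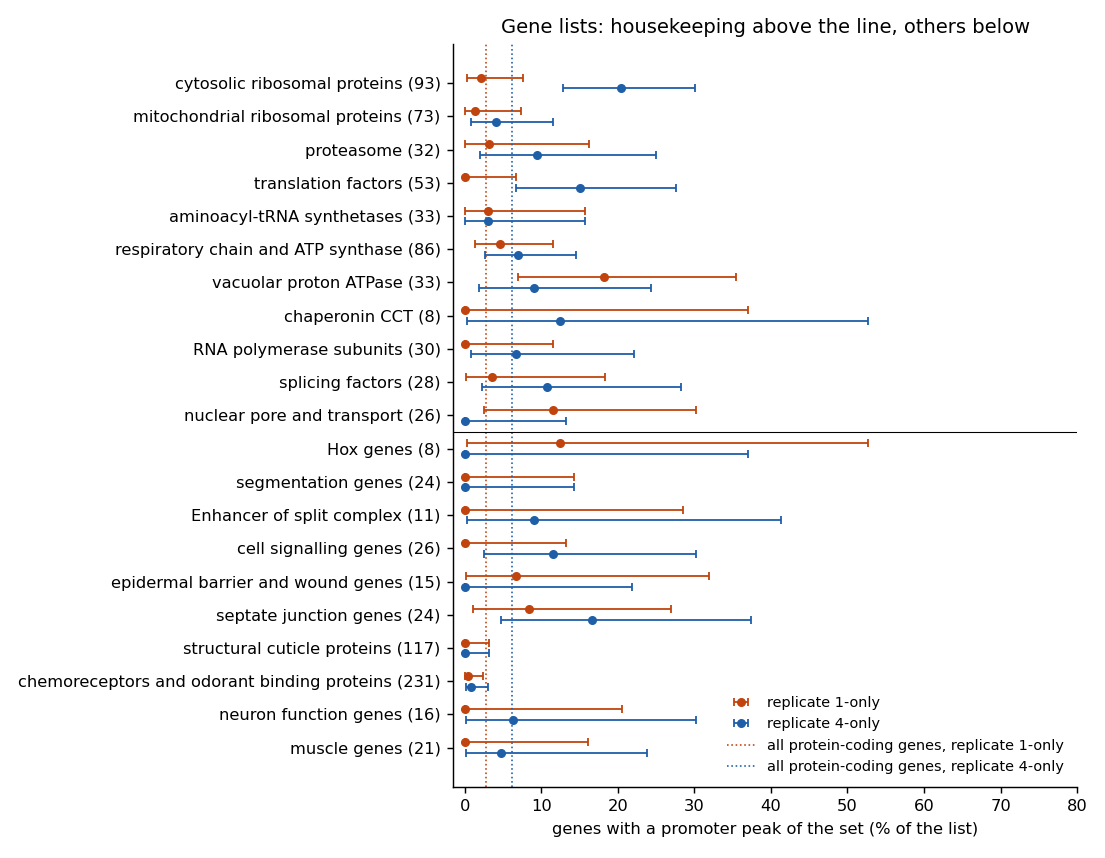
Share of each gene list (%) with a promoter peak of the replicate 1-only and of the replicate 4-only set, with exact 95% intervals and list sizes in brackets. Dotted lines mark all protein-coding genes, 2.75% for replicate 1-only and 6.16% for replicate 4-only, and cytosolic ribosomal proteins stand at 2.15% for replicate 1-only and 20.4% for replicate 4-only.

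Motifs were searched on both strands of the windows of 50 bp on either side of the summit, and a match is a description of the letters only. The DRE, TATCGATA, was in 9 replicate 1-only windows (0.467%, 0.214 to 0.885) and 48 replicate 4-only windows (2.83%, 2.10 to 3.74), against 0.603% of shared windows of replicate 1 and 0.276% of all windows of the genome. At promoter members it was in 1.18% of replicate 1-only and 5.92% of replicate 4-only windows. The core of Ohler motif 1, GGTCACAC, was in 0.312% of replicate 1-only and 1.59% of replicate 4-only windows, and in 0.588% and 3.42% of the promoter ones in that order. The shorter CGATA, bound by the insulator protein BEAF-32 and contained in the DRE, was in 11.6% of replicate 1-only and 19.5% of replicate 4-only windows. The E-box CAGCTG was in 1.97% of replicate 1-only and 4.96% of replicate 4-only windows, against 4.25% of genome windows. Shared windows of replicate 1 were near the replicate 1-only ones, at 0.296% for GGTCACAC, 10.6% for CGATA and 1.97% for CAGCTG. The GAGA element GAGAG, at 7.84% of replicate 1-only and 9.44% of replicate 4-only windows, and the A tract of 8, at 8.62% and 9.56% in that order, had overlapping intervals.

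Grainyhead's palindrome AACCGGTT was in 0 of 1926 replicate 1-only windows, with an interval up to 0.191%, and in 15 replicate 4-only windows (0.885%, 0.496 to 1.46), against 0.154% of shared windows of replicate 1 and 0.0914% of genome windows. Its core CCGGTT was in 0.571% of replicate 1-only and 3.78% of replicate 4-only windows, against 1.27% of shared windows of replicate 1 and 2.11% of genome windows. The core AACCNG, with a free base, takes in CCGGTT as read on the other strand. It was added after 6-letter words of these windows had been seen, and it was in 91 replicate 1-only windows (4.72%, 3.82 to 5.77) and 232 replicate 4-only windows (13.7%, 12.1 to 15.4), against 6.89% of shared windows of replicate 1 and 10.6% of genome windows. The full site with a free central base, AACCNGTT, added in the same way, was in 0.415% of replicate 1-only and 4.25% of replicate 4-only windows, against 1.17% of shared windows of replicate 1 and 0.941% of genome windows. In the replicate 4-only set it was more frequent at distal peaks (5.67%) than at promoter peaks (2.50%), the reverse of the DRE. Within windows of 35 to 40% GC the core AACCNG was in 7.33% of replicate 1-only and 15.3% of replicate 4-only windows. Shared windows of replicate 1 in that range held it in 10.1%. At 45% GC or more it was in 11.8% of replicate 1-only, 23.9% of replicate 4-only and 24.4% of shared windows of replicate 1. In each of the 6 GC ranges the replicate 1-only share was below the replicate 4-only one. Along the profile the core stood at 4.78 and 4.72 sites per 100 peaks in the 25-bp bins on either side of replicate 4-only summits. It stood at 1.09 and 1.51 at replicate 1-only summits and at 1.95 and 2.07 at shared summits of replicate 1. Bins from 100 to 300 bp away held 2.44 to 4.10 in the replicate 1-only and 2.12 to 3.95 in the replicate 4-only set. Replicate 1-only summits thus lay below their flanks and replicate 4-only summits above theirs.

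**Figure D5:**
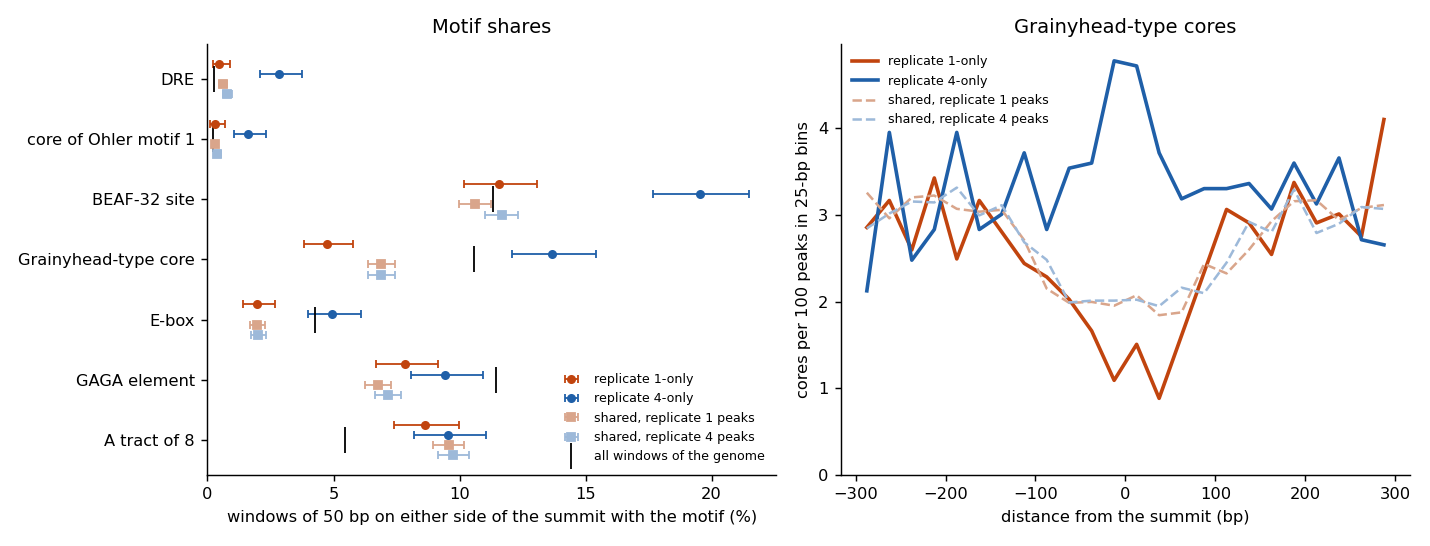
Left, share of windows of 50 bp on either side of the summit (%) with each named motif for replicate 1-only, replicate 4-only and shared peaks, with exact 95% intervals and the share of all genome windows as a bar. Right, Grainyhead-type cores, AACCNG, per 100 peaks in 25-bp bins by distance from the summit (bp). The bin from −25 to 0 bp holds 4.78 in replicate 4-only and 1.09 in replicate 1-only peaks. The lowest replicate 1-only bin, from 25 to 50 bp, holds 0.883.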

How the data were processed

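Peak lists of ChIP-seq in 2 samples of 1 group were used. Per the listings deposited with the samples, peaks of each replicate were called on dm6 against a control alignment, a pooled list came from both replicates, and the IDR list was made from these. The aligner, the caller, the IDR threshold and their versions are not given in the sources used here. The deposited signal per peak is the authors' own value with no stated scale, and it was used only to rank peaks within a list. The −log10 q-value was deposited too and was not used for ranking. The deposited summit offset was added to the peak start. Read depth is unknown from these lists, and no control or untagged sample was used.

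Each replicate's 30000 peaks were ranked by signal, the number 11045 being the length of the IDR list. Gene models were the Ensembl models of the same assembly (18164 genes and 23584 distinct TSSs by strand, 13945 genes protein-coding), and sequence was that of RefSeq. Housekeeping and other gene lists were written by hand, and 8 of their symbols matched no gene. The genes named are those nearest the 10 strongest members of each set, the 5 strongest without a summit in the other list, and up to 4 per gene list by signal, with sequences of the strongest members outside 1 arm left out here. The members, lists and motifs were chosen with earlier results of these data known. Peaks of 1 sample are not replicates, so shares carry exact intervals and no test was run. Calculations used Python 3.11.15, pandas 2.3.3, numpy 2.4.6 and scipy 1.17.1, and the matching functions were tested on planted lists.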

Additional observations from a re-analysis of the deposited data

How the results depend on the processing

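Alternatives numbered 11 and gave 72 values for the sets. The promoter share and the number of housekeeping genes were lower in the replicate 1-only than in the replicate 4-only set under each setting that recomputed them. The housekeeping number is a raw count and was not set against all genes under the alternatives. In the main setting 384 protein-coding genes had a replicate 1-only and 859 a replicate 4-only promoter peak. Housekeeping genes made up 4.95% of the former and 5.70% of the latter. With a matching distance of 100 bp, weaker summits in the other list made up 63.8% of the replicate 1-only and 50.4% of the replicate 4-only set. At that distance the promoter share was 20.5% with 32 housekeeping genes for replicate 1-only peaks. For replicate 4-only peaks it was 44.3% with 63 housekeeping genes. At 500 bp the weaker summits of the replicate 4-only set made up 65.2%. With the 5522 strongest peaks the sets held 827 replicate 1-only and 739 replicate 4-only peaks, and the weaker-summit shares were 79.0% and 77.0% in that order. The promoter shares were then 23.3% and 43.6%, and the GC medians 28.7% and 32.7%, in the same order. With the 22090 strongest the sets held 4994 and 4618 peaks, the weaker-summit shares were 33.9% and 28.0%, the promoter shares 14.8% and 32.1%, and the replicate 1-only GC median was 31.7%. Promoter shares were 12.4% and 37.2% with a TSS window of 250 bp, 28.6% and 56.4% with 1000 bp, 15.3% and 41.9% with protein-coding TSSs only, and 29.9% and 55.9% among members with no summit in the other list, replicate 1-only before replicate 4-only. GC medians over 250 bp on either side were 38.9% for replicate 1-only and 38.1% for replicate 4-only peaks, the only setting in which the order of the GC medians turned. Without the cytosolic ribosomal proteins, an alternative added after seeing the data, 17 housekeeping genes had a replicate 1-only and 30 a replicate 4-only peak. Matching by overlap of intervals moved no value beyond its interval.

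No paired analysis was possible because there is 1 group and each set comes from 1 replicate. Leaving out a replicate could not be run, since each set needs both lists. With 1 replicate behind each set, a difference between replicate 1-only and replicate 4-only peaks and a difference between the libraries cannot be told apart. Read depth, control signal and the cell types of the embryo were not tested.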

Other observations

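Counts at small RNA genes stand beside the promoter shares over all genes, 17.7% for replicate 1-only and 44.8% for replicate 4-only peaks. Summits within 500 bp of the start of a tRNA gene numbered 4 of 1926 replicate 1-only (0.208%) and 17 of 1695 replicate 4-only peaks (1.00%), against 28 of 9119 shared peaks of replicate 1 (0.307%). For snoRNA genes, whose products guide RNA modification, the numbers were 1 replicate 1-only (0.0519%) and 9 replicate 4-only peaks (0.531%), against 13 shared peaks of replicate 1 (0.143%). For snRNA genes the replicate-only sets had 1 and 1, and for rRNA genes 0 in each set.

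The sets differed most in share on the X and on arm 2R. The X carried 408 replicate 1-only (21.2%) and 262 replicate 4-only peaks (15.5%), with 19.8% of shared peaks of replicate 1 and 17.6% of the length of the 6 arms. Arm 2R carried 261 replicate 1-only (13.6%) and 330 replicate 4-only peaks (19.5%), with 15.6% of shared peaks of replicate 1 and 18.9% of the length. The shares on 2L (18.4% of replicate 1-only and 17.8% of replicate 4-only peaks), 3L (23.9% and 21.9% in that order) and 3R (22.6% and 24.2%) had overlapping intervals. Chromosome 4 carried 8 replicate 1-only (0.415%, 0.179 to 0.817) and 20 replicate 4-only peaks (1.18%, 0.722 to 1.82), also with overlapping intervals. It carried 0.537% of shared peaks of replicate 1 and makes up 1.01% of the length.

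Among all 2080 words of 6 letters, with a word and its reverse complement counted as 1, those with the largest difference towards the replicate 4-only set were AACTGG, in 2.86% of replicate 1-only and 8.20% of replicate 4-only windows, and AACCAG, in 1.82% and 7.14% in that order. Next came CGATAG, which overlaps the DRE, in 2.02% of replicate 1-only and 7.32% of replicate 4-only windows. In the other direction stood AATATA, in 31.0% of replicate 1-only and 18.8% of replicate 4-only windows. These words were chosen for their difference and carry no test.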
